A study of Mus musculus with 10 samples.

Results

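Gpd1, Gpd2, Gpd1l, Got1 and Got2 encode the dehydrogenases and transaminases of the glycerol phosphate and malate-aspartate shuttles, and their mRNA was examined in kidneys of C57BL/6 mice, an inbred strain, kept in hypoxia at 4200 m or as controls at 400 m for 30 days. The 5 genes were found by name among the 55952 genes of the deposited table, and each matched 1 locus. The 5 were chosen by their FPKM in hypoxia against control in these same libraries, so that difference is described here and no p-value is attached to it. There were 5 hypoxia libraries and 5 control libraries of whole-kidney RNA. The labels give neither age nor sex, and do not say that each library came from its own mouse, and a p-value therefore reflects only how far these samples scatter, which may be technical. Each group lived at its own altitude, so altitude and site of housing cannot be told apart.

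NADH made by glycolysis and other reactions of the cytosol cannot cross the inner mitochondrial membrane, and shuttles carry its electrons inward. In the glycerol phosphate shuttle the cytosolic enzyme encoded by Gpd1 uses NADH to reduce dihydroxyacetone phosphate to glycerol phosphate, and the FAD-dependent enzyme of the inner membrane encoded by Gpd2 oxidises it again and passes the electrons to ubiquinone. In the malate-aspartate shuttle a cytosolic and a mitochondrial aspartate transaminase, encoded by Got1 and Got2, work with malate dehydrogenases and membrane carriers, and the electrons enter as NADH at complex I. Gpd1l encodes a cytosolic relative of the Gpd1 protein that is best known from the heart. Gpd2 is a classic thyroid hormone response gene of rat liver and kidney, and Gpd1 and Gpd2 are both abundant in brown fat. HIF, the hypoxia-inducible factor, is known to repress GOT1 and GOT2 in human renal carcinoma cells that lack VHL.

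Expression was deposited as FPKM, fragments scaled to gene length and to a library size, which allows levels of different genes to be compared per length. Whole reads recovered from these values came to 16561672 to 17845464 per library, and each of the 5 enzymes rested on at least 527 reads in every library. The library size implied by the values was 0.998 to 1.10 times the recovered reads in hypoxia and 0.949 to 1.03 times in controls. The deposited scale between libraries thus differs from one set by recovered reads alone. For a gene of 1 kb, 3 reads corresponded to 0.165 to 0.183 FPKM, a limit that covers counting error only. Although the extraction protocol in the labels speaks of retina, 6 retina markers summed to 0.122 to 0.428 FPKM in hypoxia and 0.301 to 0.656 FPKM in controls, with 2 of them at 0 in every library, whereas 7 proximal tubule markers summed to 1308 to 2561 FPKM in hypoxia and 2169 to 2680 FPKM in controls. Of the hypoxia libraries 2 stood apart. Replicate 5 had 365.5 FPKM of 6 B cell markers, against at most 2.39 FPKM in any other hypoxia library and 1.79 FPKM in any control, and replicate 4 had 1067 FPKM of 8 adrenal cortex markers, against at most 14.2 FPKM in any other hypoxia library and 1.55 FPKM in any control. Exocrine pancreas markers other than Cela1 were also highest in replicate 5, among them Ctrb1 at 15.4 FPKM and Prss2 at 6.53 FPKM. Neither exceeded 0.0680 FPKM in any other library, whereas Cela1 was lowest in replicate 5, at 17.7 FPKM. Values are therefore also given without hypoxia replicates 4 and 5. In whole tissue, fewer cells of a type and less RNA per cell cannot be told apart.

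Gpd1, the cytosolic enzyme of the glycerol phosphate shuttle, was lower in every hypoxia library. Its level was 72.1, 85.5, 59.5, 74.2 and 41.3 FPKM in hypoxia replicates 1 to 5, against 146.5, 143.4, 121.9, 127.9 and 146.5 FPKM in control replicates 1 to 5. Every hypoxia library lay below every control, and hypoxia replicate 5 was the lowest. The means were 66.5 ± 16.9 FPKM in hypoxia and 137.2 ± 11.5 FPKM in controls (SD, n = 5 each), so that the hypoxia mean was 48.5% of the control mean. The log2 fold change, hypoxia minus control, on log2(FPKM + 0.5) was -1.08 (SE 0.174), and -0.93 (SE 0.119) without hypoxia replicates 4 and 5. Gpd1 (ENSMUSG00000023019) lies on chromosome 15 from 99717515 to 99725005 on the plus strand of GRCm38, the mouse build whose gene coordinates the table carries. An annotated antisense transcript, Gm16537, overlaps it but held at most 2 reads in any library.

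Gpd2, the mitochondrial enzyme of the same shuttle, differed more, with a hypoxia mean at 31.3% of the control mean. Its level was 4.59, 5.27, 5.08, 5.76 and 6.50 FPKM in hypoxia replicates 1 to 5, against 16.6, 17.3, 16.2, 20.3 and 16.5 FPKM in control replicates 1 to 5. The groups were far apart, with a highest hypoxia value of 6.50 FPKM and a lowest control value of 16.2 FPKM. The means were 5.44 ± 0.726 FPKM in hypoxia and 17.4 ± 1.67 FPKM in controls (SD, n = 5 each). The log2 fold change was -1.59 (SE 0.0956), and -1.70 (SE 0.0848) without hypoxia replicates 4 and 5. Of the 15264 genes tested, 32 had a lower log2 fold change than Gpd2 and 162 a lower one than Gpd1. Gpd2 (ENSMUSG00000026827) spans chromosome 2 from 57237635 to 57370719 on the plus strand. A processed transcript on the other strand, A930012O16Rik, overlaps its start, and its reads reached at most 4.55% of those of Gpd2.

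Gpd2 has annotated transcript starts in a pair of neighbouring regions, and its promoter sequence is shown because Gpd2 was the enzyme with the largest difference of the 5. Both stretches are from RefSeq windows of GRCm38.p6, plus strand, each cut just before the first transcript start that GENCODE annotates in it. The first is chr2:57237428-57237634 and the second chr2:57238132-57238296. Capitals mark a match to ACGTG, the core of HIF binding sites, on the minus strand.
Gpd2 upstream start: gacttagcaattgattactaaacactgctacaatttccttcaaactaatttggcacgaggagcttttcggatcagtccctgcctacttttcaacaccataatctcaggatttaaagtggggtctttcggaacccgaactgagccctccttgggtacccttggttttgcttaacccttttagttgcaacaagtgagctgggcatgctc
Gpd2 downstream start: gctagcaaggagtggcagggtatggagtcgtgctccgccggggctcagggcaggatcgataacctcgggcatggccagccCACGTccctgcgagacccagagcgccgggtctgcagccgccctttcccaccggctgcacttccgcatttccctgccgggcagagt

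Searches on both strands covered ACGTG, the other form of that core (GCGTG), and AGGTCA (a site element of thyroid hormone and other nuclear receptors) in the whole windows of 300 bases. The first Gpd2 window held none of the 3, and the second held 1 ACGTG. Among 32851 windows of that length in the RefSeq table, 19.6% held ACGTG, 32.4% GCGTG and 16.3% AGGTCA. The Gpd1l window held 2 ACGTG matches, which are a single palindromic site read on both strands, and 1 GCGTG, that of Got2 held 2 GCGTG and 1 AGGTCA, and that of Got1 held 1 of each. The table matched 4 of the 5 enzymes, and Gpd1 is named only. Such matches are descriptions of letters in a window and show no binding.

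Gpd1l, the relative of Gpd1, did not share the lower level. It was at 15.6, 14.7, 16.7, 14.7 and 19.8 FPKM in hypoxia replicates 1 to 5, against 14.5, 14.3, 13.9, 14.4 and 13.1 FPKM in control replicates 1 to 5. The groups did not overlap on the deposited scale, but only narrowly, and they did overlap after scaling by a trimmed mean of M-values, where the lowest hypoxia library had 14.59 FPKM and the highest control 14.64 FPKM. Hypoxia replicate 5, the library with B cell genes, was the highest. Means of 16.3 ± 2.10 FPKM in hypoxia and 14.0 ± 0.582 FPKM in controls (SD, n = 5 each) gave a log2 fold change of 0.20 (SE 0.0838), and 0.15 (SE 0.0632) without hypoxia replicates 4 and 5. The gene (ENSMUSG00000050627) lies on chromosome 9 from 114899341 to 114933987 on the minus strand.

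Got1, the cytosolic aspartate transaminase, overlapped between the groups. It was at 45.6, 39.3, 46.4, 50.4 and 33.8 FPKM in hypoxia replicates 1 to 5, against 49.96, 45.1, 42.5, 42.7 and 45.96 FPKM in control replicates 1 to 5. Both the highest and the lowest of the 10 values were in hypoxia libraries, replicates 4 and 5, which are those that stood apart. The means, 43.1 ± 6.57 FPKM in hypoxia and 45.2 ± 3.02 FPKM in controls (SD, n = 5 each), differed by less than the SD of either group. Its log2 fold change was -0.08 (SE 0.109), and -0.05 (SE 0.0809) without hypoxia replicates 4 and 5. Got1 (ENSMUSG00000025190) is on chromosome 19 from 43499752 to 43524605 on the minus strand.

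Got2, the mitochondrial transaminase, likewise overlapped. Its level was 60.2, 57.8, 68.5, 68.5 and 43.1 FPKM in hypoxia replicates 1 to 5, against 67.0, 68.5, 64.0, 54.7 and 62.1 FPKM in control replicates 1 to 5. Hypoxia replicate 5 was again the lowest, and the other 4 hypoxia libraries lay within the range of the controls. With means of 59.6 ± 10.4 FPKM in hypoxia and 63.3 ± 5.39 FPKM in controls (SD, n = 5 each), the difference was smaller than the SD of either group. The log2 fold change was -0.10 (SE 0.129), and -0.02 (SE 0.0907) without hypoxia replicates 4 and 5. Got2 (ENSMUSG00000031672) is on chromosome 8 from 95864134 to 95888547 on the minus strand. A processed pseudogene, Got2-ps1, was listed at 1.32 to 3.25 FPKM in hypoxia and 1.57 to 2.59 FPKM in controls, and how the counting shared reads between the copies is not given in the sources used here.

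**Figure D1:**
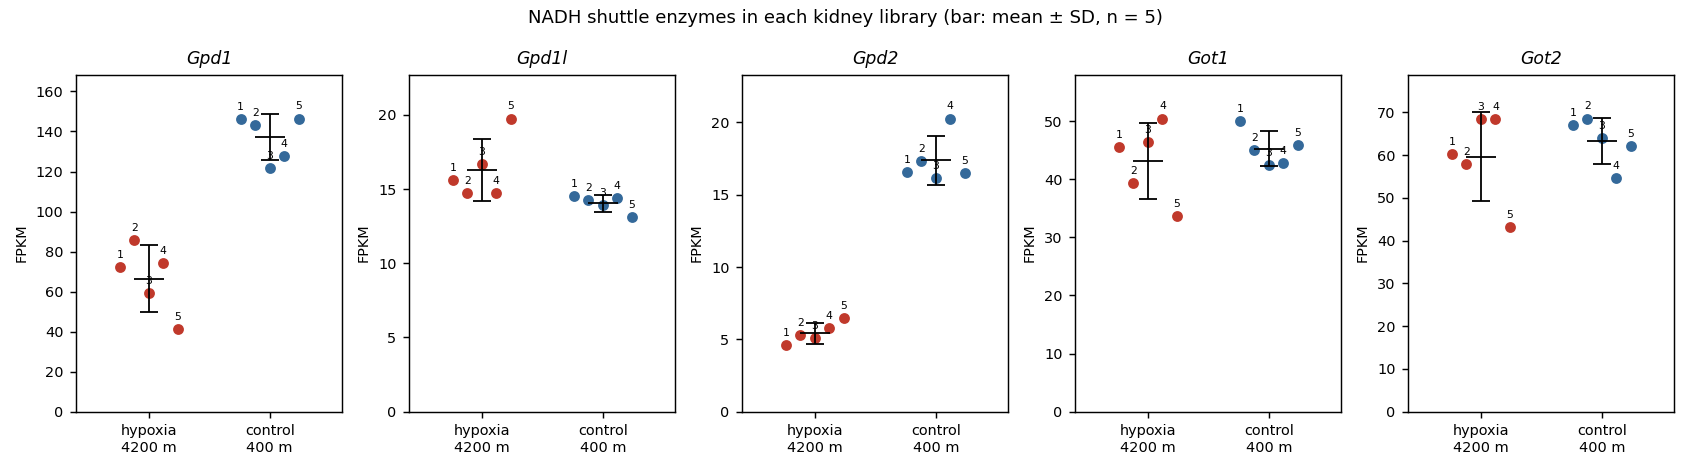
FPKM of the 5 enzymes (vertical axes, each starting at 0) in the 5 hypoxia and 5 control libraries; points are libraries with their replicate number, and bars are the mean ± SD. Gpd1 and Gpd2 lie below every control in each hypoxia library, with means of 66.5 and 5.44 FPKM in hypoxia against 137.2 and 17.4 FPKM in controls, whereas Got1 and Got2 overlap.

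The limma test, adjusted by Benjamini-Hochberg over all genes, called 11.5% of the 15264 genes at 0.05, with 559 (3.66%) higher in hypoxia and 1189 (7.79%) lower. That split was 918 higher and 767 lower when the libraries were rescaled without the 100 most abundant genes. By limma voom on recovered reads it was 791 higher and 923 lower. Gpd1 and Gpd2, 2 of the 5 enzymes, were among the lower genes. Without hypoxia replicates 4 and 5 it was the same 2, where 12.3% of 14724 genes were called, 4.53% higher and 7.75% lower. Groups did not overlap for 3 of the 5, Gpd1 and Gpd2 below and Gpd1l above, while they did not overlap for 14.2% of all tested genes, 5.68% higher and 8.54% lower. Without hypoxia replicates 4 and 5 it was again 3 of the 5, beside 21.5% of all tested genes, 9.73% higher and 11.8% lower. Because the enzymes were chosen with this difference known, nothing is read from these counts.

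The order of the enzymes by FPKM, which is per length, was Gpd1, Got2, Got1, Gpd1l and Gpd2 in hypoxia and Gpd1, Got2, Got1, Gpd2 and Gpd1l in controls. In hypoxia the ranges of Gpd1 (41.3 to 85.5 FPKM), Got2 (43.1 to 68.5 FPKM) and Got1 (33.8 to 50.4 FPKM) overlapped one another across libraries, although within each hypoxia library Gpd1 was above Got1 and Got2 above Got1. In controls the 5 ranges were separate. Gpd1 exceeded 97.2% of the 21936 protein-coding genes in its hypoxia mean and 98.7% in its control mean. The Gpd2 mean exceeded 70.1% of them in hypoxia and 87.9% in controls.

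Ratios within a library do not depend on how libraries were scaled. Gpd1l was 2.55 to 3.40 times Gpd2 in the hypoxia libraries and 0.711 to 0.877 times Gpd2 in the controls. Gpd1 was 1.22 to 2.18 times Got1 in hypoxia, against 2.87 to 3.19 times in controls. Gpd2 came to 7.41 to 15.1% of Got2 in hypoxia and 24.8 to 37.0% in controls. None of these 3 ratios overlapped between the groups. The ratio of Got1 to Got2, by contrast, was 0.677 to 0.782 in hypoxia and 0.658 to 0.781 in controls, and the ranges nearly coincided. Gpd1l made up 20.7 ± 7.06% of the FPKM of Gpd1 and Gpd1l together in hypoxia and 9.33 ± 0.847% in controls (SD, n = 5 each). Gpd2 relative to Gpd1 overlapped, at 6.16 to 15.7% in hypoxia and 11.3 to 15.9% in controls, with hypoxia replicate 5 as the only hypoxia library inside the control range.

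**Figure D2:**
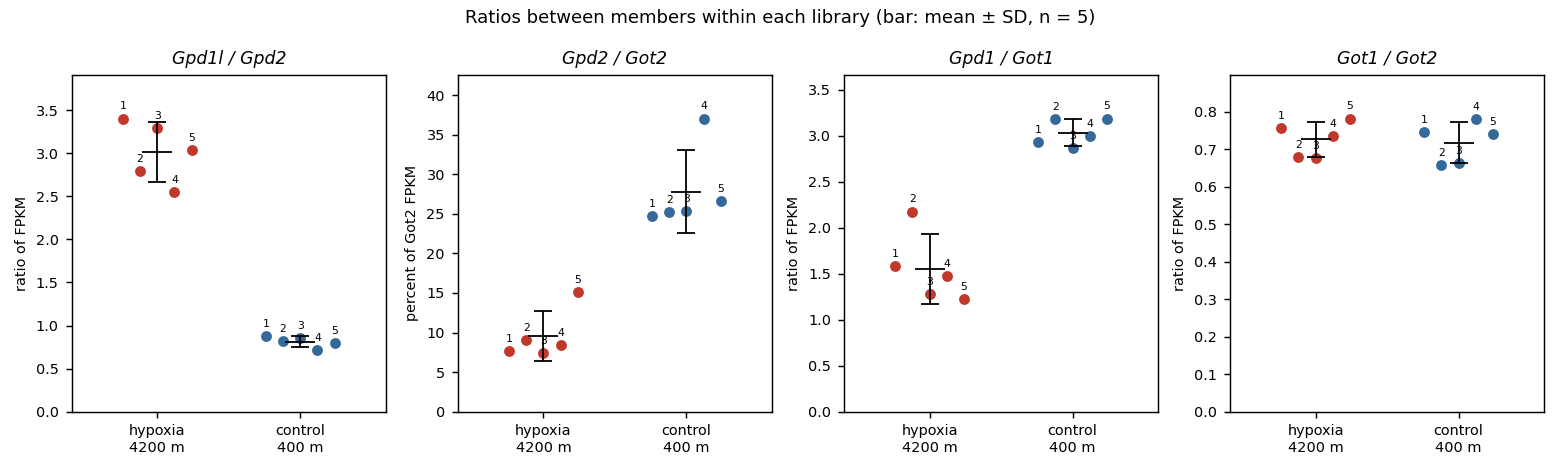
Ratios of FPKM between enzymes within each library (vertical axes start at 0; Gpd2 over Got2 in percent), with replicate numbers and the mean ± SD of 5 hypoxia and 5 control libraries. Gpd1l over Gpd2 is 3.02 ± 0.349 in hypoxia and 0.813 ± 0.0653 in controls, and Got1 over Got2 is 0.727 ± 0.0470 in hypoxia and 0.718 ± 0.0542 in controls.

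Over all libraries each of the 5 enzymes had a larger coefficient of variation in hypoxia than in controls. It was 25.4% in hypoxia and 8.38% in controls for Gpd1, and 13.3% in hypoxia and 9.61% in controls for Gpd2. For Gpd1l it was 12.9% in hypoxia and 4.14% in controls, for Got1 15.3% in hypoxia and 6.68% in controls, and for Got2 17.5% in hypoxia and 8.52% in controls. Without hypoxia replicates 4 and 5 the hypoxia values were 18.0% for Gpd1, 6.32% for Gpd1l, 8.87% for Got1 and 9.00% for Got2, while that of Gpd2, 7.03%, was below its control value. Replicate 5, at the bottom of the hypoxia group for Gpd1, Got1 and Got2 and at its top for Gpd1l and Gpd2, also had the lowest sum of proximal tubule markers, 1308 FPKM, against 2173 to 2561 FPKM in the other hypoxia libraries. The part of that library's makeup in its values was not tested.

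Markers of fat moved with the groups in one respect. Ucp1, the uncoupling protein that defines brown fat, was at 0 to 0.101 FPKM in the 5 hypoxia libraries, against 9.31, 4.28, 0, 14.4 and 8.53 FPKM in control replicates 1 to 5. Cidea, another brown fat gene, was at 0.0987 to 2.58 FPKM in hypoxia and 0.534 to 16.7 FPKM in controls, also with its lowest control value in replicate 3. That control replicate, with Ucp1 listed at 0, had 16.2 FPKM of Gpd2 and 121.9 FPKM of Gpd1, the lowest control value of each. The hypoxia means were 33.6% of its Gpd2 and 54.6% of its Gpd1, against 31.3% and 48.5% of the control means. That comparison rests on control replicate 3 alone. The part of fat tissue, brown fat included, in the levels of Gpd1 and Gpd2 was not tested. All 10 fat markers together, 2 of which are Ucp1 and Cidea, summed to 77.7 to 678.9 FPKM in hypoxia and 74.2 to 208.7 FPKM in controls (exact permutation test over 252 regroupings, two-sided p = 0.746, adjusted over 13 marker lists 0.746). The most abundant of the 10 was Cfd, at 508.4 FPKM in hypoxia replicate 4, so the test of the sum says little of Ucp1 and Cidea. Hypoxia replicate 4, which held the 678.9 FPKM, had 74.2 FPKM of Gpd1, within the range of 59.5 to 85.5 FPKM in hypoxia replicates 1 to 3. Skeletal muscle, another tissue rich in Gpd1, left 5 markers at a sum of 0.496 to 1.35 FPKM in hypoxia and 0.623 to 1.26 FPKM in controls.

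**Figure D3:**
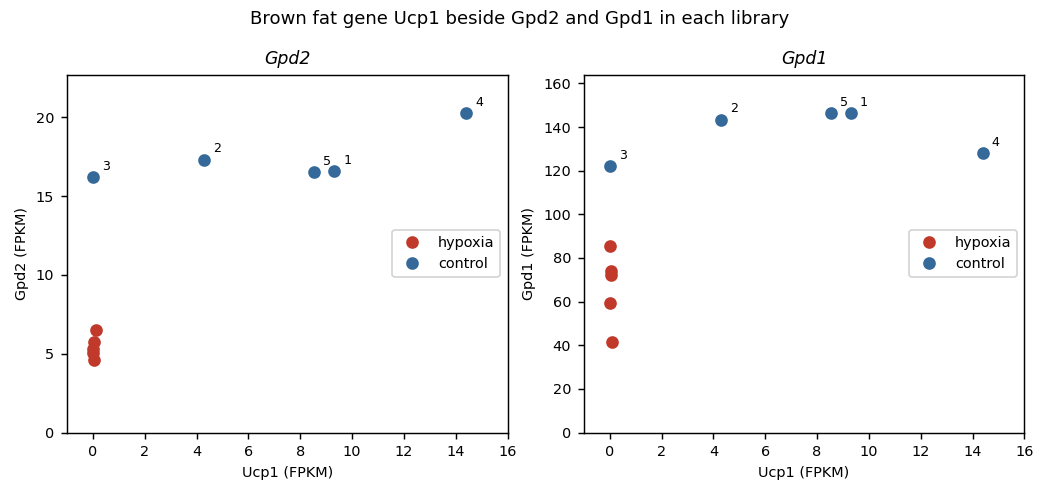
Gpd2 (left) and Gpd1 (right) in FPKM against Ucp1 in FPKM, 1 point per library, with control replicates numbered. Control replicate 3 has Ucp1 at 0 and Gpd2 at 16.2 FPKM, above the 4.59 to 6.50 FPKM of the 5 hypoxia libraries.

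Summed markers of nephron segments did not pass the same test after adjustment, although the sums rest mostly on their most abundant genes. The proximal tubule sum gave an exact permutation p of 0.111 (two-sided, adjusted 0.206). The thick ascending limb sum was 929.4 to 1436 FPKM in hypoxia and 1001 to 1952 FPKM in controls (exact permutation p = 0.111, adjusted 0.206). For the distal convoluted tubule it was 57.4 to 121.2 FPKM in hypoxia and 66.7 to 108.1 FPKM in controls (exact permutation p = 0.667, adjusted 0.746). For the intercalated cell it was 82.5 to 120.8 FPKM in hypoxia and 68.7 to 84.4 FPKM in controls (exact permutation p = 0.0238, adjusted 0.103). The 120.8 FPKM belonged to hypoxia replicate 5, where Slc4a1 alone, an anion exchanger also found in red blood cells, had 88.3 FPKM, while the other 4 intercalated markers had their lowest values of the 10 libraries. The podocyte sum was 64.2 to 136.5 FPKM in hypoxia, with 102.9 to 132.7 FPKM in replicates 1 to 3, and 69.6 to 88.4 FPKM in controls (exact permutation p = 0.0635, adjusted 0.206). Single markers that did not overlap between the groups, named after their values were seen, included Slc5a2 of the proximal tubule (32.8 to 89.8 FPKM in hypoxia and 92.4 to 156.5 FPKM in controls), Cldn10 of the thick ascending limb (39.9 to 67.4 FPKM in hypoxia and 75.6 to 93.9 FPKM in controls) and Pvalb of the distal convoluted tubule (3.27 to 7.46 FPKM in hypoxia and 14.0 to 16.8 FPKM in controls). Wt1 of the podocyte, named in the same way, did not overlap in the other direction (2.94 to 4.42 FPKM in hypoxia and 1.83 to 2.12 FPKM in controls). All other markers of the nephron segments overlapped. The part of segment makeup in the levels of Gpd1 and Gpd2 was not tested. None of the 13 marker lists passed after adjustment, where the lowest adjusted value was 0.103 and the smallest unadjusted p the design allows is 0.00794. The B cell list was at that smallest p (exact permutation p = 0.00794, adjusted 0.103), with groups that did not overlap. A single list with fully separated groups could thus not pass alone, and nothing on tissue makeup is read from lists that did not pass.

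The other components of the malate-aspartate shuttle are the malate dehydrogenases and the carriers that exchange malate and aspartate across the inner membrane. None of the 5 passed the test (limma, and also 0 by limma voom on recovered reads), beside 11.5% of all tested genes. Of the 5, 1 had an unadjusted limma p under 0.05, beside 4451 of all 15264 tested genes. The median log2 fold change of the 5 was -0.17, against 0.01 for all tested genes. Mdh1, the cytosolic malate dehydrogenase, was at 448.1 ± 59.6 FPKM in hypoxia and 479.6 ± 45.7 FPKM in controls (SD, n = 5 each), and its difference did not pass (log2 -0.10, SE 0.123, limma adjusted p = 0.592). Mdh2, the mitochondrial one, was at 92.1 ± 9.14 FPKM in hypoxia and 112.2 ± 9.59 FPKM in controls (-0.29, SE 0.0980, adjusted p = 0.0846). The carriers Slc25a11, Slc25a12 and Slc25a13 had log2 fold changes of -0.17, -0.0078 and -0.19. Without hypoxia replicates 4 and 5 the median of the 5 was -0.02.

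Glycerol phosphate is also made from glycerol by glycerol kinase, split by a phosphatase and used by acyltransferases for lipid synthesis. Of 11 tested genes of this kind, 1 was lower and 0 higher, beside 7.79% of all tested genes lower and 3.66% higher, with a median log2 fold change of -0.28. Pgp, the phosphatase that acts on glycerol phosphate, fell to 13.9 ± 1.90 FPKM in hypoxia, against 19.3 ± 2.24 FPKM in controls (-0.47, SE 0.108, limma adjusted p = 0.0223), and the 5 hypoxia values lay below the 5 controls. Its call was lost without control replicate 1 (adjusted p = 0.0638), without control replicate 2, and with limma voom on recovered reads. Gk, glycerol kinase, named after its values were seen, was at 90.0 ± 13.7 FPKM in hypoxia and 112.3 ± 10.1 FPKM in controls (adjusted p = 0.106). Tpi1, which interconverts the triose phosphates that feed Gpd1 and was named in the same way, was at 180.9 ± 36.8 FPKM in hypoxia and 239.6 ± 26.0 FPKM in controls (adjusted p = 0.110). Without hypoxia replicates 4 and 5, Pgp (adjusted p = 0.00669) and Lipe, hormone-sensitive lipase (adjusted p = 0.0398), were lower.

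Gpd2 is 1 of several dehydrogenases that hand electrons to ubiquinone. Of 8 others tested, none passed (limma, and 0 by limma voom), beside 11.5% of all tested genes. Of the 8, 3 had an unadjusted limma p under 0.05, beside 4451 of all 15264 tested genes. The median log2 fold change of the 8 was -0.28, or -0.15 without hypoxia replicates 4 and 5. The 2 most abundant, the succinate dehydrogenase subunits Sdha and Sdhd, were at 176.7 ± 33.4 and 181.4 ± 35.2 FPKM in hypoxia and at 225.0 ± 15.7 and 223.0 ± 22.3 FPKM in controls (SD, n = 5 each). Their log2 fold changes were -0.37 (limma adjusted p = 0.116) and -0.31 (adjusted p = 0.180). Chdh, choline dehydrogenase, named after its values were seen, came nearest to the threshold at -0.48 (adjusted p = 0.0533).

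Among 6 cytosolic enzymes that use NAD, 1 was lower and 0 higher, beside 7.79% and 3.66% of all tested genes. Ldha, lactate dehydrogenase A, which also reoxidises cytosolic NADH, fell to 148.1 ± 18.0 FPKM in hypoxia, against 218.0 ± 13.4 FPKM in controls (-0.56, SE 0.101, limma adjusted p = 0.00793), and its groups did not overlap. The fold change was smaller than that of Gpd1 and Gpd2, a difference between genes that was not tested. Ldhb, the other lactate dehydrogenase subunit and the more abundant, was at 636.4 ± 128.7 FPKM in hypoxia and 660.5 ± 44.8 FPKM in controls (adjusted p = 0.760). Gapdh, the glycolytic source of cytosolic NADH, was listed at 1.31 FPKM in hypoxia and 1.53 FPKM in controls on average, a level that is uncertain because near-identical copies of this gene can share its reads.

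Enzymes that make or use aspartate and glutamate, the amino acids that Got1 and Got2 interconvert, went in both directions. Of 10 tested, 1 was higher and 2 lower, beside 3.66% and 7.79% of all tested genes, with a median log2 fold change of 0.10. Gpt, the cytosolic alanine transaminase, fell to 3.12 ± 0.529 FPKM in hypoxia, against 5.33 ± 1.31 FPKM in controls (SD, n = 5 each; -0.67, limma adjusted p = 0.0256), although its groups overlapped. Adssl1, an adenylosuccinate synthase that consumes aspartate, rose to 5.23 ± 0.514 FPKM in hypoxia, against 3.11 ± 1.05 FPKM in controls (0.71, adjusted p = 0.0327). The calls of Gpt and Adssl1 were lost without hypoxia replicates 4 and 5 (adjusted p = 0.0521 and 0.0843), where Gpt2, the mitochondrial alanine transaminase, was higher instead (0.73, adjusted p = 0.0154). They were also lost in 5 and 6 of the 10 fits that leave out 1 library, with adjusted p up to 0.0689 for Gpt (without control replicate 2) and 0.0838 for Adssl1 (without control replicate 1). Got1l1, another gene of the aspartate transaminase family, was listed at 0 in all 10 libraries.

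**Figure D4:**
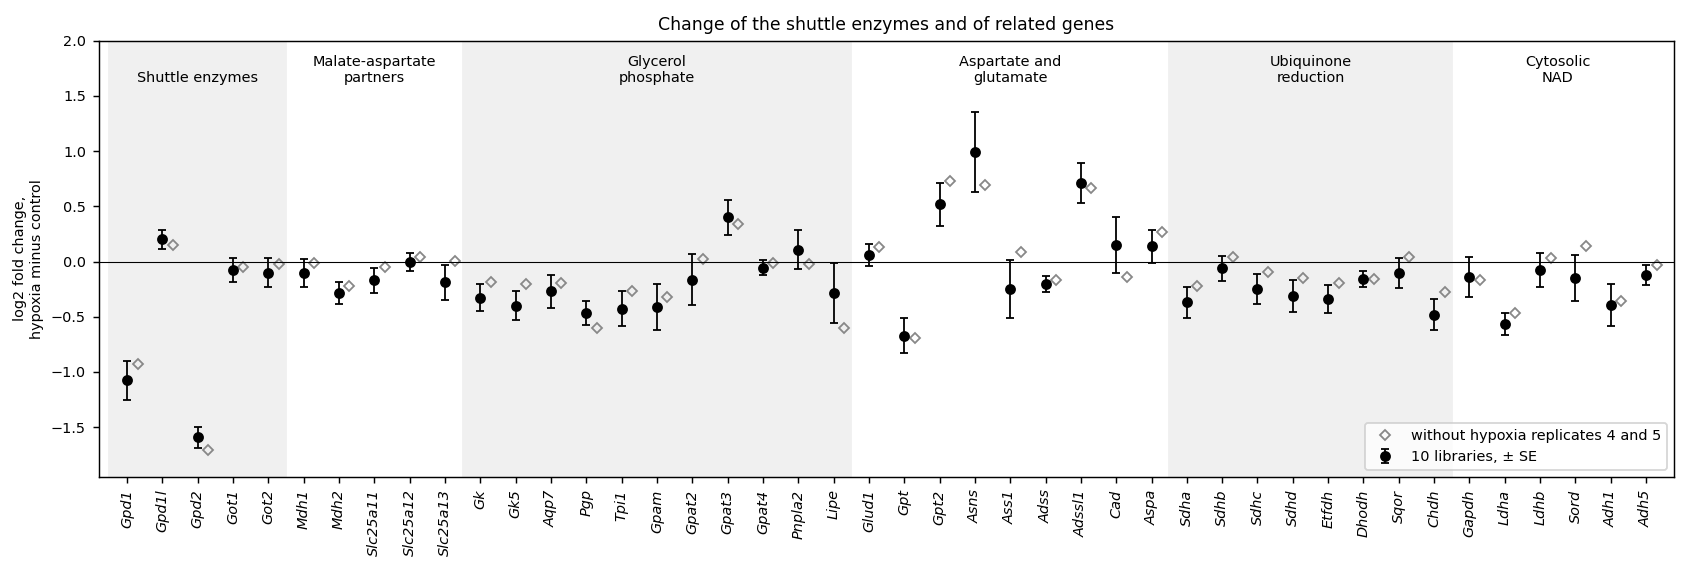
Log2 fold change, hypoxia minus control, on log2(FPKM + 0.5) for the 5 shuttle enzymes and 5 groups of related genes; filled points are fits to 10 libraries with their SE, open diamonds fits without hypoxia replicates 4 and 5. Gpd1 and Gpd2, at -1.08 and -1.59, lie below every other gene shown, of which Gpt is the lowest at -0.67.

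After subtraction of each group's mean on log2(FPKM + 0.5), Gpd1 and Gpd2 had a Pearson correlation of -0.06 over the 8 libraries without hypoxia replicates 4 and 5, and of -0.54 over all 10. Got1 and Got2 had 0.62 over 8 libraries and 0.88 over 10, the highest of the pairs among the 5 enzymes, and Gpd1 and Gpd1l had -0.66 and -0.90. With so few libraries, which share their normalisation and, over 10, the 2 that stood apart, these values are descriptions only.

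The genes whose deviations were most like those of each enzyme over the 8 libraries were taken from 9950 other protein-coding genes. For Gpd1 they were Mrm2, Tmem169 and Mcu (r = 0.961, 0.960 and 0.956), where 1% of genes exceeded 0.818. For Gpd2 they were Tgfb1, Capg and Llgl1 (0.952, 0.948 and 0.947). The closest to Gpd1l were Sostdc1, Rhod and Tom1l1 (0.967, 0.965 and 0.959), and to Got1 Riok2, Zfyve21 and Sec22b (0.960, 0.957 and 0.952). Got2 was most like Minpp1, Psmd1 and Ldhb (0.968, 0.967 and 0.966). For the enzymes other than Gpd1, the value that 1% of genes exceeded was 0.829 to 0.883. Each r named here was picked as among the highest of 9950 over only 8 libraries, and is a description only. Over all 10 libraries r stayed above 0.9 for Mrm2 with Gpd1 (0.965), Zfyve21 with Got1 (0.961) and Ldhb with Got2 (0.976), and was negative for Sostdc1 and Rhod with Gpd1l (-0.26 and -0.41). The log2 fold change between the groups was -0.38 for Mrm2, -1.28 for Tmem169 and -0.10 for Mcu, the mitochondrial calcium uniporter, beside -1.08 for Gpd1. It was 0.40 for Tgfb1, 0.21 for Capg and -0.0035 for Llgl1, beside -1.59 for Gpd2.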

How the data were processed

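The authors deposited 1 table of FPKM values per gene and library, used here without further scaling, and beside it a gene length in bases (an other kind of unit), which served to recover reads. The submitters' processing notes name HISAT2 2.0.5 and the human build hg38; of 55227 gene identifiers found in a mouse GRCm38 annotation (GENCODE), 99.4% had the same start and end. For counting, neither tool nor strand setting is given in the sources used here. Multiplied by length, 100% of the values came out as whole reads (tolerance 0.05).

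In R 4.3.3, limma 3.58.1 (trend, robust) was fitted to log2(FPKM + 0.5) of genes averaging 0.5 FPKM or more, two-sided, with Benjamini-Hochberg adjustment over all 15264; this scale understates changes of low genes. Tests on simulated libraries preceded it. Summed markers were compared with an exact permutation test (SciPy 1.17.1), and figures drawn with matplotlib 3.10.9. The enzymes, lists and motifs were chosen with earlier results of these data known. Named are the 5 enzymes, listed genes past the threshold (or the 2 most abundant), and 3 likest genes per enzyme with a mean of at least 2 FPKM; others are said to be named after their values were seen. A listed gene past the threshold is counted but not reported here by name. No 2 libraries were alike within sampling noise. Alternatives changed the filter, the pseudocount, the scaling (a trimmed mean of M-values, or without the 100 most abundant genes), the error model and the libraries used.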

Additional observations from a re-analysis of the deposited data

Results flagged for a closer look

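Gpd2 in control replicate 4, at 20.3 FPKM, stood above the other 4 controls (16.2 to 17.3 FPKM) by a gap of 0.726 of the group's range, over the critical value of 0.71 for 5 samples in Dixon's test. It was the 1 value so marked among 24 groups of 5 examined, and chance marks about 1 in 20. The same library had the highest Ucp1 of the controls, 14.4 FPKM, but control replicate 1, with Ucp1 at 9.31 FPKM, had Gpd2 at 16.6 FPKM; the part of brown fat in the value was not tested. Without control replicate 4 the log2 fold change of Gpd2 was -1.54, against -1.59 with it.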

How the results depend on the processing

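Under the 21 alternatives run (filters, pseudocounts, scalings, error models, a replicate block, limma voom on recovered reads, which was chosen after seeing the data, and libraries left out), each enzyme's log2 fold change moved by less than the SD between replicates, a description from which no support is drawn, since this difference chose the enzymes. Over the 10 fits that leave out 1 library the log2 fold change ran from -1.18 to -0.92 for Gpd1, -1.66 to -1.54 for Gpd2, 0.13 to 0.23 for Gpd1l, -0.14 to 0.0028 for Got1 and -0.15 to 0.01 for Got2, the last 2 positive only without hypoxia replicate 5. Genes called in the whole table, 1748, became 966 with no filter on the mean, 3253 with sample quality weights and 824 (without control replicate 1) to 2724 (without hypoxia replicate 5) with 1 library left out. Called among the 49 tested genes of the 7 related lists were 7 (14.3%), beside 11.5% of all tested genes. That count became 3 with no filter, 18 with quality weights and 2 to 10 with 1 library left out. Of single calls, Gpt, Adssl1 and Me1 were lost with no filter and with the block, and Me1 with rescaling without the 100 most abundant genes. The cause was not tested. With the replicate number as a block, 999 genes in the table and 3 of the 49 were called. Same-numbered libraries deviated together with correlations of only -0.08 to 0.09, and 2 of 5 hypoxia libraries matched their own number best. No pairing by number was seen in these correlations, which cannot show whether such samples share anything else. The planned count tests were not run because the values are FPKM. Depth does not limit the 5 enzymes, which had 527 to 7262 reads per library.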

Other observations

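Among 5 thyroid hormone genes, a group to which Gpd2 is classically added, 2 were lower and 0 higher in hypoxia (limma), beside 7.79% and 3.66% of all tested genes. Their median log2 fold change was -0.75, against 0.01 for all tested genes. This list, like the others, was chosen with earlier results of these data known, so nothing on Gpd2 is read from it. Dio1, a deiodinase of thyroid hormone, fell to 6.45 ± 2.09 FPKM in hypoxia, against 22.7 ± 2.07 FPKM in controls (SD, n = 5 each; -1.79, SE 0.186, limma adjusted p = 0.000610). Me1, cytosolic malic enzyme, fell to 113.1 ± 31.4 FPKM in hypoxia, against 184.8 ± 19.6 FPKM in controls (-0.75, adjusted p = 0.0352); leaving out 1 library at a time ended its call in 6 of 10 fits (the highest adjusted p, 0.0854, came without control replicate 2), but not without hypoxia replicates 4 and 5 together (adjusted p = 0.0248). The receptors Thra and Thrb, named after their values were seen, did not pass (adjusted p = 0.249 and 0.226).

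Of all 15264 tested genes, 11.5% passed and 4451 had an unadjusted limma p under 0.05. Of Hif1a and the 3 prolyl hydroxylases that control its protein, none passed (limma, 3 at an unadjusted p under 0.05, 0 by limma voom). The 2 most abundant over all 10 libraries were Egln1, at 24.4 ± 2.80 FPKM in hypoxia and 28.0 ± 1.47 FPKM in controls (adjusted p = 0.160), and Egln2, at 19.7 ± 2.02 FPKM in hypoxia and 23.6 ± 2.15 FPKM in controls (adjusted p = 0.0832). Hif1a, named after its values were seen, was at 21.1 ± 2.75 FPKM in hypoxia and 17.8 ± 1.46 FPKM in controls (log2 0.24, limma adjusted p = 0.133), the opposite direction to Egln1 and Egln2. Egln3, named in the same way, went in the direction of Hif1a. It was at 7.91 ± 1.88 FPKM in hypoxia and 6.75 ± 1.89 FPKM in controls (log2 0.22, limma adjusted p = 0.482).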
